A study of Rattus norvegicus with 96 samples.

Results

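A set of 8 genes of RNA processing, translation, protein turnover and chromatin (Khsrp, Akap8l, Srrm1, Rpap3, Eif3a, Herc1, Msl1 and Smarce1) were followed through the brain arrays of alcohol-preferring rats. All 22 probe sets that the platform annotation maps to these 8 genes were taken, out of 31042 probe sets that are not controls. They comprise 4 probe sets of Msl1, 3 each of Khsrp, Akap8l, Srrm1 and Smarce1, and 2 each of Rpap3, Eif3a and Herc1. The genes were chosen by their measured values: a probe set of each was higher after ethanol in the central nucleus of the amygdala (CeA). In each gene that probe set, the one with the smallest p in the CeA ethanol comparisons, is called leading here, and the remaining 14 are called further probe sets. Values of the leading probe sets in that comparison are therefore a description, given without a test. The other region sampled, the nucleus accumbens shell (NAc shell), played no role in the choice and was tested.

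All rats were of the P line, bred for high alcohol intake, and the labels used here give no age, sex or housing. Ethanol rats had limited access to ethanol, and water rats received none. The last drinking episode ended 1, 6 or 24 h before sampling. At 1 h the CeA was profiled on 11 arrays from ethanol rats and 6 from water rats, at 6 h on 10 and 5, and at 24 h on 10 and 6. For the NAc shell these numbers were 10 and 7, then 10 and 5, then 11 and 5. Nothing in the labels says whether arrays came from separate rats, so the p-values below measure the spread between arrays. RNA was amplified in 2 cycles from 25 ng, and each array value is a log2 intensity, so a difference of 1 is a doubling. Tissue punches hold many cell types, and more cells of a type cannot be told apart from more RNA per cell.

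The genes act at successive steps of gene expression. Khsrp is a KH-domain protein that binds AU-rich elements in messenger RNA, speeds their decay and takes part in microRNA maturation. Srrm1 is a splicing coactivator rich in serine and arginine, and Akap8l is a nuclear relative of the A-kinase anchoring proteins. Rpap3 works with Hsp90 in the R2TP complex, which assembles RNA polymerase II. Eif3a is a scaffold subunit of the translation initiation factor eIF3, and Herc1 is a very large HECT-type ubiquitin ligase. Msl1 is the scaffold of the MSL complex, which acetylates histones, and Smarce1 is a subunit of the BAF chromatin remodelling complex. All are broadly expressed, including in neurons.

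Promoters are shown for the 4 genes with bases to print, all among those whose leading probe sets varied together across CeA arrays. RefSeq promoter windows on the GRCr8 assembly matched 7 of the 8 genes, all but Rpap3. Only bases upstream of the annotated gene were kept, and the windows of Eif3a, Msl1 and Smarce1 lay inside the annotated gene. Capitals mark matches on either strand to the GC box GGGCGG, the CCAAT box CCAAT and the core of the cyclic AMP response element, TGACG. None of the 3 motifs contains another. All runs are written 5′ to 3′ in the direction of the gene.
Khsrp, minus strand of chr9:1959401-1959650: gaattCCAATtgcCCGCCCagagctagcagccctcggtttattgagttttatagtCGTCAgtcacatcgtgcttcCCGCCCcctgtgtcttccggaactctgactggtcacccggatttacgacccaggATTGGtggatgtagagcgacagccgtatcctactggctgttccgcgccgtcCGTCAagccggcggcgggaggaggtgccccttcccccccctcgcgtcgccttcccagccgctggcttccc
Akap8l, minus strand of chr7:12012844-12013061: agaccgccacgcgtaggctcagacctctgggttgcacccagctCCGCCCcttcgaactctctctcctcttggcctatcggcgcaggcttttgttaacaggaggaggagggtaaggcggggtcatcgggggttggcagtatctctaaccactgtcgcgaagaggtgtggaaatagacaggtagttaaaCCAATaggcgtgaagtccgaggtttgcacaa
Srrm1, minus strand of chr5:152875555-152875686: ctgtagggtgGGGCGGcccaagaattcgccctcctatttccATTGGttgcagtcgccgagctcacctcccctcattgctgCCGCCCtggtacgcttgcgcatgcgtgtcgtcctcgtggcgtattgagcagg
Herc1, plus strand of chr8:75796107-75796346: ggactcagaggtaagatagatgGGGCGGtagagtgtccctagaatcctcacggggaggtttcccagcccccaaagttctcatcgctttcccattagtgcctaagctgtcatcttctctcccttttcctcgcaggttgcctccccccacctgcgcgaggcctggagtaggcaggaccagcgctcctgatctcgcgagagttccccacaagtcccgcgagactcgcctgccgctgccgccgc

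Each of the 4 windows held a GC box, with 2 matches in Khsrp, 1 in Akap8l, 2 in Srrm1 and 1 in Herc1. Over the same number of bases, 30.5%, 27%, 14% and 29.5% of 33469 RefSeq promoters held one. The CCAAT box was found 2 times in Khsrp, 1 time in Akap8l and 1 time in Srrm1, where 34%, 31% and 18.8% of promoters held it. Khsrp alone among the 4 had the TGACG core, in 2 places, and 18.2% of promoters held it. These matches are letters in a window and were not tested as binding sites.

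Array quality bears on the values that follow. The median correlation of an array with the rest of its region was at least 0.95 for each CeA array and at least 0.962 for each NAc shell array. By this measure 4 arrays of the CeA and 5 of the NAc shell lay below the limit of 3 scaled median absolute deviations. Those of the CeA were ethanol at 1 h, ethanol at 6 h, and the arrays numbered 16 and 17 in water at 6 h. All came from the last of 4 runs of array numbers, where a run ends when the order of times restarts. Ethanol and water arrays are numbered apart, so runs were counted within each treatment and joined by their order. No label links an ethanol run to a water run, and every value by run below rests on this assumption. The lower quartile of an array did not exceed 5.88 for the CeA and was at least 6.01 for the NAc shell. The regions may thus have been normalized apart, and levels are set side by side without a test. GABA neuron markers (Gad1, Gad2, Slc32a1) averaged 11.3 to 12.1 across CeA arrays.

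In the CeA, the leading probe sets of all 8 genes were higher in ethanol than in water rats over the mean of the 3 times, by 0.41 to 0.68 log2. Differences were larger at 1 h (median of the 8 genes 0.60) and 6 h (0.58) than at 24 h (0.24), where they ran from -0.003 to 0.79. Standard errors at single times were 0.16 to 0.30. Each gene is described below by its step in gene expression.

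Khsrp (1376525_at) differed by 0.56 ± 0.11 (estimate ± SE), a ratio of 1.47. At 1 h the 11 ethanol arrays lay between 8.16 and 9.28 with a median of 8.49, and the 6 water arrays between 7.30 and 8.21 with a median of 7.78. At 6 h the 10 ethanol arrays lay between 8.22 and 8.86 with a median of 8.38, and the 5 water arrays were at 7.43, 7.65, 7.66, 7.86 and 8.19. At that hour every ethanol array was above every water array, a separation that 0.0161% of the 18625 probe sets tested had in this direction. The ethanol arrays at 24 h lay between 7.45 and 8.39 with a median of 7.97, within the water range of 7.21 to 8.89 with a median of 7.51. The 24 h difference of 0.14 was 0.36 without the water array at 8.89.

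Srrm1 (1377914_at) differed by 0.42 ± 0.10, with water arrays that were tightly grouped at 1 h and widely spread at 6 h. The 11 ethanol arrays at 1 h ran from 8.89 to 10.001 with a median of 9.48, against 9.04 to 9.26 with a median of 9.11 in water. Ethanol arrays at 6 h ran from 8.88 to 10.1 with a median of 9.34, and the water arrays were at 8.03, 8.39, 8.92, 9.31 and 9.47. At 24 h ethanol arrays were between 8.82 and 9.36 (median 9.15) and water arrays between 8.24 and 9.27 (median 8.85). The groups overlapped at each time, and the 6 h difference of 0.59 was 0.39 without the water array at 8.03 and the 24 h difference of 0.32 was 0.215 without the one at 8.24. Of 31 ethanol arrays, 29 were above the water mean of their hour, a count that follows in part from the choice of the probe set.

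Akap8l (1375813_at) differed by 0.41 ± 0.09. Ethanol values at 1 h were 7.58 to 8.37 with a median of 7.79, and 7 of 11 exceeded the highest water array (water 7.12 to 7.69, median 7.48). At 6 h they were 6.997 to 8.06 with a median of 7.81, and the water values were 6.47, 7.01, 7.18, 7.48 and 7.68. The 24 h values overlapped widely, at 6.82 to 7.87 (median 7.46) with ethanol and 6.803 to 7.79 (median 7.22) with water. The 24 h difference of 0.20 was 0.118 without the water array at 6.803 and 0.316 without the one at 7.79.

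Rpap3 (1376853_at) differed by 0.44 ± 0.10. Its water arrays at 1 h sat in a narrow band of 6.89 to 7.13 (median 7.01), and 9 of the 11 ethanol arrays were above that band (6.76 to 7.72, median 7.44). At 6 h ethanol arrays lay between 6.53 and 7.70 with a median of 7.34, and water arrays were at 5.82, 6.59, 6.81, 6.94 and 7.04. At 24 h the ranges were 6.53 to 7.43 (median 6.98) with ethanol and 5.94 to 7.35 (median 6.69) with water. At 6 h 8 of the 10 ethanol arrays were above the highest water array, and at 24 h 1 of 10. The 6 h difference of 0.65 was 0.45 without the water array at 5.82, and the 24 h difference of 0.32 was 0.17 without the water array at 5.94.

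Eif3a (1379485_at) had the largest difference among the leading probe sets, 0.68 ± 0.16, a ratio of 1.60, and also the widest spread. At 1 h ethanol values were 7.01 to 8.68 (median 7.74) and water values 6.22 to 7.42 (median 7.18). At 6 h ethanol values were 7.13 to 8.37 (median 7.53), inside the span of the water values of 6.30, 6.47, 7.43, 7.44 and 8.46. At 24 h ethanol values were 6.99 to 7.99 (median 7.32) and water values 4.91 to 7.22 (median 6.91). A single water array at 4.91, the next being at 6.64, carried much of the 24 h difference, which was 0.79 with it and 0.45 without it. Without the water array at 8.46 the 6 h difference moved from 0.39 to 0.70, and without the one at 6.30 to 0.16.

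Herc1 (1394746_at) differed by 0.44 ± 0.10. Of 31 ethanol arrays, 30 were above the water mean of their hour, which again follows in part from the choice. Ethanol values at 1 h were 10.5 to 11.8 (median 10.8) against 10.2 to 10.7 (median 10.6) in water. At 6 h they were 10.6 to 11.8 (median 10.9) against water values of 9.67, 10.1, 10.1, 10.3 and 10.9. At 24 h they were 10.3 to 10.9 (median 10.5) against 9.40 to 10.8 (median 10.4). Overlap with water was present at each hour, since the highest water arrays at 6 and 24 h lay among the ethanol arrays. The 24 h difference of 0.28 was 0.113 without the water array at 9.40.

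Msl1 (1376028_at) and Smarce1 (1378203_at), the chromatin genes, had differences near 0 at 24 h. For Msl1 the ethanol arrays at 1 h lay between 10.7 and 11.5 (median 11.2) and the water arrays between 9.74 and 11.1 (median 10.5), a difference of 0.76 ± 0.17. At 6 h they lay between 10.9 and 11.8 (median 11.1), against water values of 9.95, 10.6, 10.9, 10.9 and 11.3, and differed by 0.47 ± 0.18. That difference was 0.28 without the water array at 9.95. At 24 h ethanol (10.7 to 11.5, median 10.9) and water (10.7 to 11.1, median 10.99) differed by -0.003 ± 0.17. The estimates at the 3 times were not tested against each other, because the choice of the genes used them.

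For Smarce1 the 1 h difference was 0.82 ± 0.18, with ethanol arrays between 7.46 and 8.36 (median 7.87) and water arrays spread from 6.23 to 7.91 (median 7.14). At 6 h ethanol values were 7.22 to 8.04 (median 7.82) and water values 6.48, 7.47, 7.53, 7.62 and 7.73. That 6 h difference of 0.40 was 0.18 without the water array at 6.48. At 24 h ethanol (7.31 to 8.21, median 7.63) and water (7.16 to 8.11, median 7.63) covered nearly the same range.

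**Figure D1:**
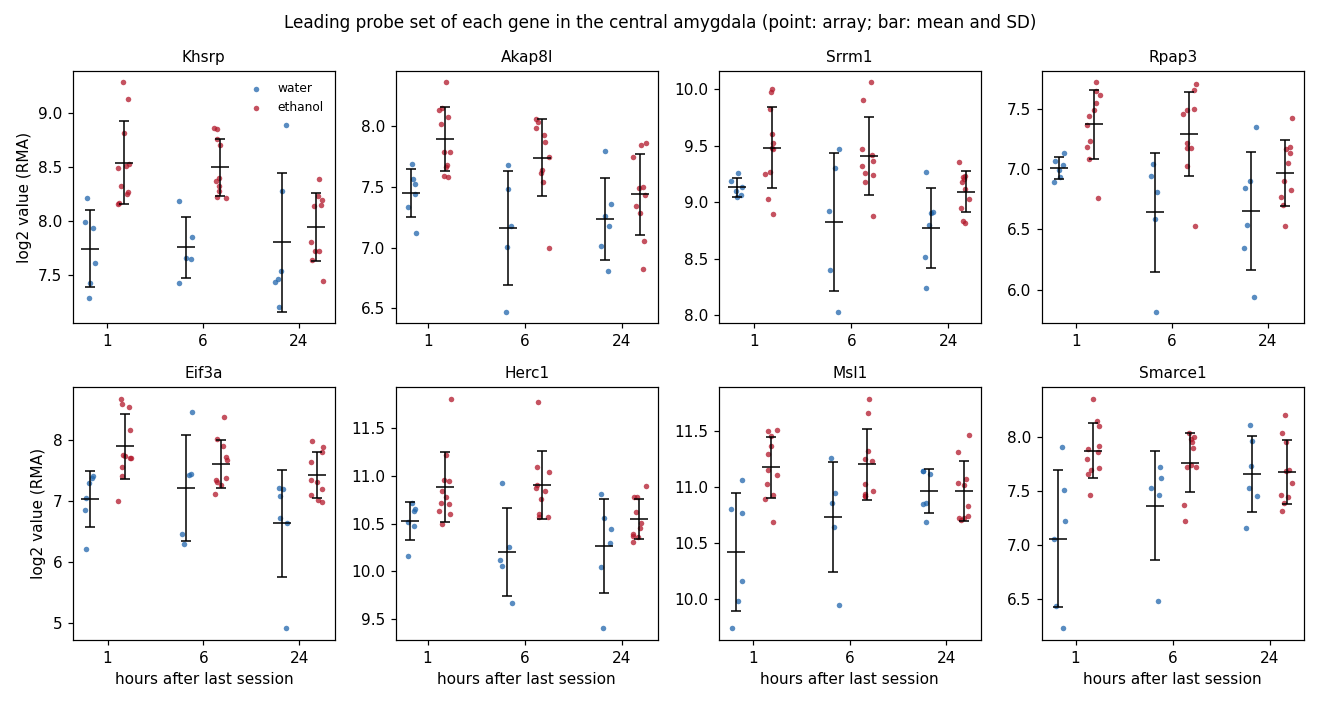
Log2 value (vertical axis) of the leading probe set of each gene in every CeA array, by hours after the last session (horizontal axis), with water arrays in blue, ethanol arrays in red, and bars for the mean and SD of a group. Ethanol arrays of Khsrp sit above all water arrays at 6 h, and a single water array of Eif3a lies at 4.91 at 24 h.

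The further probe sets of the same genes had smaller estimates. Over the mean of the 3 times their CeA estimates ran from -0.095 to 0.23 with a median of 0.06, and 12 of 14 were above 0, where 49.3% of all probe sets tested were. Those estimates come from the contrast that chose the genes and are given as values only. Khsrp is an example: the further probe set 1375426_a_at, at a mean near 11.3, differed by 0.08 ± 0.08, and 1369170_at, at a mean of 4.997 and below the limit for testing, by 0.01 ± 0.03. The Eif3a probe set 1389968_at, near 11.3, was lower with ethanol by estimate (-0.08 ± 0.05).

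For Akap8l the further estimates were 0.03 ± 0.07 (1385713_at) and 0.03 ± 0.05 (1390375_at), for Rpap3 0.05 ± 0.04 (1399135_at), and for Srrm1 0.08 ± 0.04 (1371425_at) and 0.07 ± 0.08 (1389995_at). Smarce1 had 0.03 ± 0.04 (1372938_at) and 0.09 ± 0.06 (1383806_at). Msl1 had 0.08 ± 0.06 (1373390_at), -0.09 ± 0.05 (1389917_at) and 0.11 ± 0.06 (1399118_at). Because the leading probe set was picked by this contrast, its place above the others is part of the choice.

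The largest further estimate, 0.23 ± 0.10 for 1369742_at of Herc1, needs a limit. The annotation maps this probe set to Herc1, but the RefSeq transcript it cites belongs to Kcnj3, a potassium channel gene, in the current RefSeq table. Its difference was 0.255 at 1 h, 0.46 at 6 h and -0.04 at 24 h. It is kept here as a Herc1 probe set by the annotation only. All leading probe sets cite GenBank sequences that are not RefSeq transcripts. Their genes could not be checked in this way and also rest on the annotation.

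**Figure D2:**
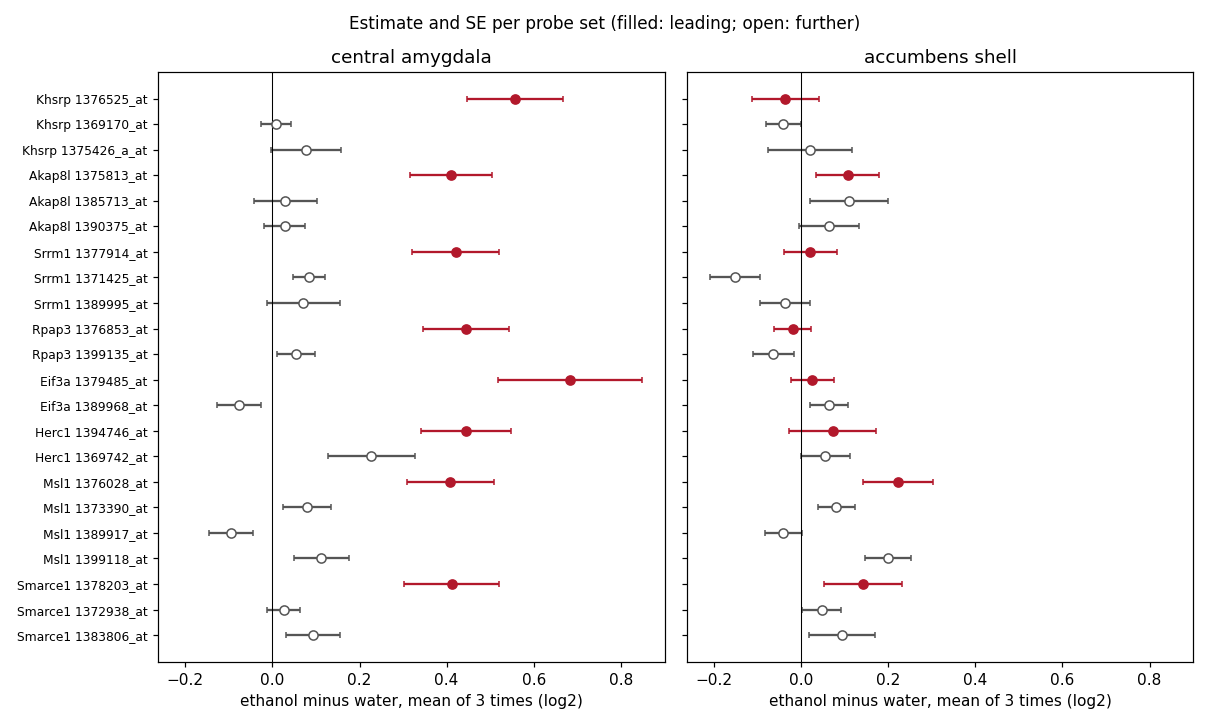
Estimates of ethanol minus water over the mean of the 3 times, in log2 units (horizontal axis), with their SE, for all 22 probe sets in the CeA (left) and the NAc shell (right); filled red points are leading and open points further probe sets. In the CeA the leading probe sets sit at 0.41 to 0.68 and the further ones at -0.095 to 0.23, while in the NAc shell both kinds lie between -0.15 and 0.22.

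Across the CeA, limma called 0 of 18625 probe sets at an adjusted p under 0.05 for ethanol over the 3 times (0%), and 8.16% had an unadjusted p under 0.05. When the runs of array numbers entered as a block, 48 were called (0.258%), and 6 of the 8 leading probe sets were among them, all but Msl1 and Smarce1. None of the 12 further probe sets tested was called in either fit. Nothing is read from these counts, because the same contrast chose the genes. The blocked count rested on few arrays: without the water array numbered 17 at 6 h it was 10, and without the water array numbered 14 at 24 h it was 462, with 2 to 8 leading probe sets among the calls as each of 48 arrays was left out.

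Within each of the 4 runs, all 8 leading probe sets were higher with ethanol. The runs divide the same arrays that chose the genes, so this follows in part from the choice and is no replication. Of all probe sets tested, 53.4%, 50.2%, 48.2% and 45.2% were higher with ethanol in runs 1 to 4. In run 1, with 5 ethanol and 3 water arrays, the leading differences were 0.33 to 1.503, the highest being Eif3a. Run 2, with 10 and 6 arrays, had Eif3a at 0.64, Khsrp at 0.54 and Akap8l at 0.48, but Msl1 at 0.09 ± 0.16 and Smarce1 at 0.01 ± 0.18.

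Run 3, also with 10 and 6 arrays, had all 8 between 0.29 and 0.68. Run 4 could be compared at 6 h only, with 2 ethanol and 2 water arrays, and its values of 0.14 to 1.12 had standard errors of up to 1.10. Eif3a varied most with the run, from 0.14 in run 4 to 1.503 in run 1. Msl1 and Smarce1 followed, from 0.09 and 0.01 in run 2 to 1.12 and 0.86 in run 4.

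**Figure D3:**
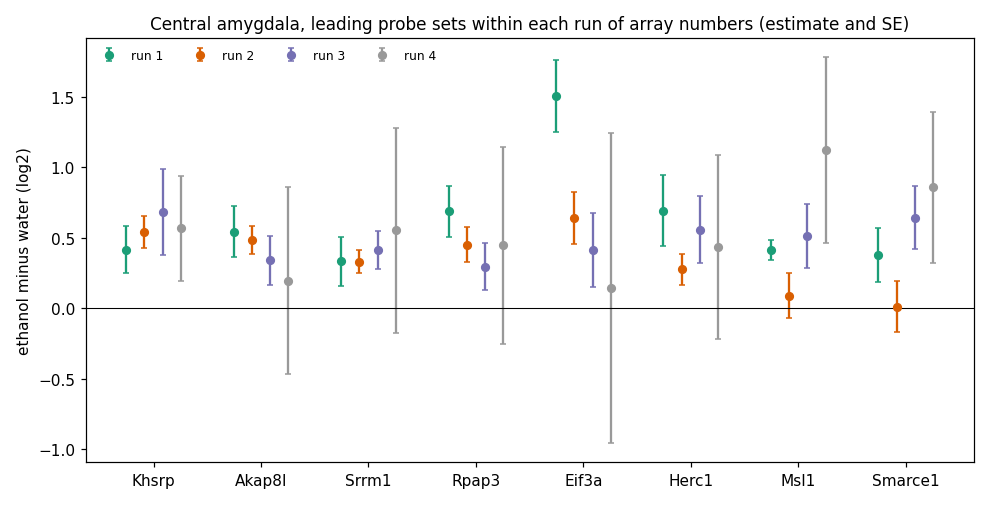
Ethanol minus water difference in log2 units (vertical axis) of each leading probe set within each of 4 runs of CeA array numbers, with its SE. All points lie above 0, in part because the same arrays chose the genes, and Msl1 and Smarce1 lie at 0.09 and 0.01 in run 2.

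The last run held the 4 arrays that stood low in correlation, and its water arrays at 6 h were extremes for most of the genes. Array 16 was the highest of the 5 water arrays for Khsrp, Akap8l, Srrm1, Rpap3, Eif3a and Herc1 and the lowest for Msl1 and Smarce1. Array 17 was the lowest for Akap8l, Srrm1, Rpap3, Eif3a and Herc1 and the highest for Msl1. Without the 4 arrays the leading estimates were 0.61 for Khsrp, 0.71 for Eif3a, 0.47 for Herc1, 0.42 for Rpap3, 0.41 for Akap8l, 0.40 for Srrm1, 0.35 for Msl1 and 0.34 for Smarce1.

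In the NAc shell, where the genes had not been chosen, no member probe set tested passed for ethanol against water, which does not show that ethanol left them unchanged. Of the leading probe sets only 5 of 8 had a mean above the testing limit there, those of Akap8l, Srrm1, Herc1, Msl1 and Smarce1. With limma, 0 of 16 member probe sets passed an adjusted p under 0.05 over the mean of the 3 times, as did 0% of all 18625. At an unadjusted p under 0.05 there were 3 of 16, against 11.1% of all probe sets. All 5 leading estimates were above 0, from 0.02 to 0.22, as were 53.4% of all probe sets.

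The 3 were 2 probe sets of Msl1 and 1 of Srrm1. Msl1 was higher with ethanol by 0.22 ± 0.08 at its leading probe set (limma, unadjusted p = 0.00764, adjusted p = 0.301) and by 0.20 ± 0.05 at 1399118_at (unadjusted p = 3.54e-04, adjusted p = 0.206). Of the 31 ethanol arrays, 24 and 28 were above the water mean of their hour at these probe sets. In the leading probe set of Msl1 the ethanol arrays had medians of 11.4, 11.3 and 11.1 at 1, 6 and 24 h, and the water arrays 11.04, 10.9 and 11.01. Srrm1 was lower at its further probe set 1371425_at, by -0.15 ± 0.06 (adjusted p = 0.322), and its leading probe set differed by 0.02 ± 0.06. None of these passed the correction.

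The 95% intervals give the range for the NAc shell difference in signal of each leading probe set. They were -0.10 to 0.14 for Srrm1, -0.04 to 0.25 for Akap8l and -0.13 to 0.27 for Herc1. For Smarce1 the interval was -0.04 to 0.32 and for Msl1 0.06 to 0.38. Khsrp (-0.19 to 0.12), Rpap3 (-0.11 to 0.07) and Eif3a (-0.07 to 0.12) were too dim for testing there, so their intervals come from the fit without the filter. All values of the Rpap3 and Eif3a probe sets lay below the lower quartile of every array there (at least 6.01). Intervals of such dim signals set no bound on a change in the RNA. Because the CeA values chose the genes, the difference of the ethanol effect between regions was not tested.

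Hours after the last session gave no pass among the tested members in the NAc shell either. At the single times no member passed for ethanol against water (limma, smallest adjusted p of 0.899), and 0% of all probe sets did at each time. At an unadjusted p under 0.05 there were 1, 2 and 0 of the 16 at 1, 6 and 24 h, against 1.88%, 5.23% and 3.74% of all. For time within ethanol rats the smallest unadjusted p among the 16 was 0.0912, in Smarce1, where 0.0376% of all probe sets passed and 3.92% had an unadjusted p under 0.05. Its ethanol means were lower at 24 h than at 1 h by estimate (-0.29), as were those of Msl1 (-0.25) and Akap8l (-0.19). Time within water rats and the ethanol by time interaction gave no pass among members or among all probe sets (0% each), and no unadjusted p under 0.05 among the 16. Over all probe sets 3.64% and 0.864% had one.

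The level of the leading probe sets differed between the regions far more than the ethanol difference did, for 5 of the genes. Herc1 had the largest difference among them, at a mean of 10.6 ± 0.42 (SD, n = 48) in the CeA and 7.29 ± 0.33 (n = 48) in the NAc shell, or 3.33 log2. Eif3a was at 7.40 ± 0.67 in the CeA and 2.40 lower in the NAc shell, Rpap3 at 7.06 ± 0.42 and 5.34 ± 0.14, Khsrp at 8.13 ± 0.50 and 6.47 ± 0.25, and Srrm1 at 9.19 ± 0.42 and 7.76 ± 0.19. In Herc1, Rpap3 and Khsrp all 48 CeA arrays were above all 48 NAc shell arrays. In Eif3a 47 and in Srrm1 46 of them were.

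A CeA mean higher by more than 1 log2 was found in 5.33% of the 19678 probe sets tested in a region, and separation without overlap in this direction in 2.76%. That limit was set after the values were seen. All 8 leading probe sets were above the testing limit in the CeA, and 5 were in the NAc shell. Since CeA values chose the genes, a higher CeA level may be part of the choice. For Akap8l, Msl1 and Smarce1 the leading probe sets differed by 0.12, -0.20 and -0.56, with overlapping arrays. The further probe sets, 13 of 14, lay between -0.78 and 0.22, and the exception was 1369742_at, annotated to Herc1, at 1.27. In Khsrp, Akap8l, Srrm1 and Eif3a the leading probe set was higher in the CeA by mean and the further ones lower, in Srrm1 by only -0.01 and -0.03. Both probe sets of Rpap3 and both annotated to Herc1 were higher in the CeA, and all of Msl1 and Smarce1 were lower.

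The difference between a leading and a further probe set within the same array also changed with region. For Eif3a (leading minus 1389968_at) its median was -3.92 over CeA arrays and -6.65 over NAc shell arrays. For Khsrp (minus 1375426_a_at) the medians were -3.08 and -5.45, for Rpap3 (minus 1399135_at) -5.80 and -7.35, and for Srrm1 (minus 1371425_at) -2.745 and -4.195. For Msl1 (minus 1373390_at) they were 1.19 and 1.23, and for Smarce1 (minus 1372938_at) -4.32 and -4.16, so these 2 genes changed little between regions by this measure. These are differences between probe sets of unlike sequence, so their size is not comparable between genes. Their change between regions has limits too. The Gapdh difference, a measure of RNA integrity described below, averaged 2.92 with ethanol and 2.91 with water in the CeA. In the NAc shell it averaged 1.79 and 1.85, and its part in the change was not tested. All NAc shell values of the Eif3a and Rpap3 leading probe sets lay below the lower quartile of every array there (at least 6.01).

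**Figure D4:**
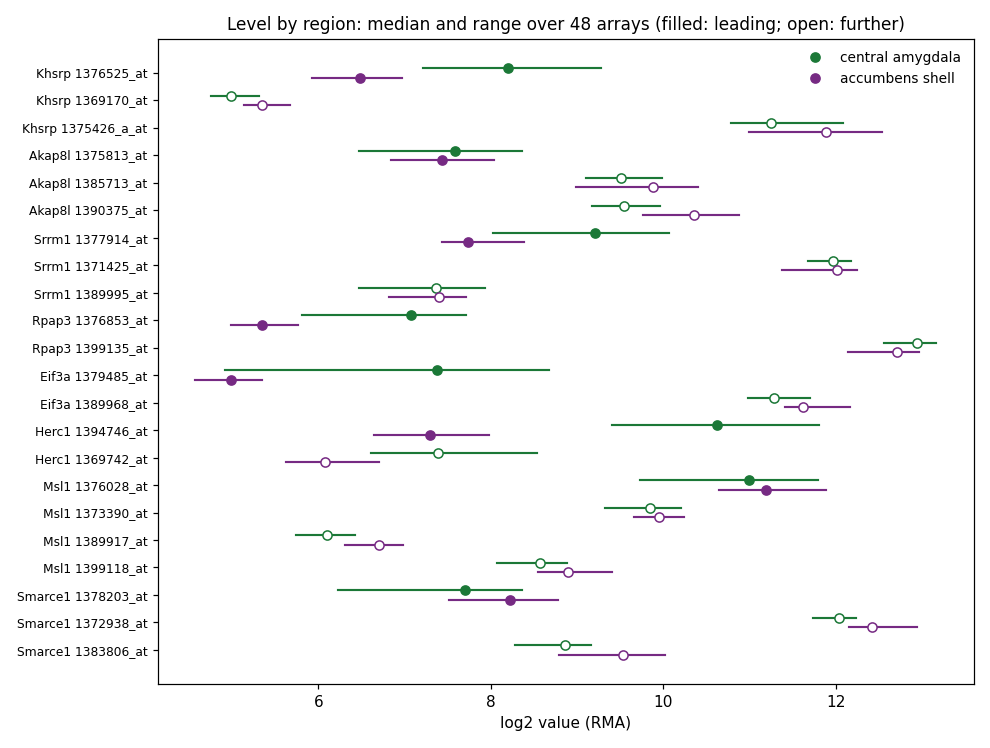
Median (point) and range (line) of the log2 value (horizontal axis) over the 48 CeA arrays in green and the 48 NAc shell arrays in purple, for each probe set, with leading probe sets filled. Herc1, Rpap3 and Khsrp leading probe sets have ranges that do not touch, while all further probe sets overlap between the regions.

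With group means removed, the leading probe sets varied together from array to array in the CeA, in 2 sets. Among Khsrp, Akap8l, Srrm1, Rpap3, Eif3a and Herc1 the 15 correlations over 48 arrays had a median Pearson's r of 0.58. Akap8l with Rpap3 stood at 0.82, Srrm1 and Rpap3 at 0.70, Rpap3 and Herc1 also at 0.70, and Khsrp with Eif3a lowest at 0.10. Msl1 with Smarce1 stood at 0.78. Between the 2 sets the 12 correlations had a median of -0.15 and ran from -0.24 to 0.19. The division into 2 sets was made after these values were seen.

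The pattern between the 2 sets depended on arrays and region. With the run means removed too, the medians were 0.60 among the 6 genes and -0.08 between the sets, and Msl1 with Smarce1 was at 0.84. Over the 44 CeA arrays left without the low-correlation arrays they were 0.51, 0.04 and 0.81, so the median between the sets was no longer below 0. Of its 12 correlations 3 were still below 0, the lowest being Srrm1 with Smarce1 at -0.10. In the NAc shell they were 0.42, 0.21 and 0.54. Arrays share their RNA quality and normalization across probe sets, and these correlations are descriptions without a test.

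In the CeA a leading probe set was seldom close to the further ones of its own gene. The 14 such correlations in the CeA ran from -0.29 (Srrm1 with 1389995_at) to 0.61 (Smarce1 with 1383806_at). Herc1 stood at 0.45 with 1369742_at, Eif3a at 0.43 and Rpap3 at 0.24 with their further probe sets. By comparison, the upper 1% of the 18624 other probe sets began at 0.507 for Smarce1, below its 0.61 with 1383806_at. Across the genes that upper 1% began at 0.50 to 0.64. Among the 7 other leading probe sets, 5 were in that upper 1% for Herc1, 4 for Rpap3, 3 each for Srrm1 and Eif3a, 2 for Akap8l, and 1 each for Khsrp, Msl1 and Smarce1. In the NAc shell the leading and further probe sets of a gene correlated at -0.08 (Srrm1 with 1371425_at) to 0.67 (Akap8l with 1385713_at).

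Msl1 and Smarce1 lie on the same chromosome, rat chromosome 10, with 10 protein-coding genes between them in the GRCr8 annotation. Of those between, Igfbp4, Rapgefl1 and Casc3 had a tested probe set with a single symbol. Their correlations with Msl1 were -0.07, 0.03 and 0.22, and with Smarce1 -0.05, 0.29 and 0.19. Their ethanol differences in the CeA were 0.02 to 0.04. These values are below the 0.78 of Msl1 with Smarce1. The remaining genes between them had no such probe set, and a part of the shared position in this correlation was not tested.

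**Figure D5:**
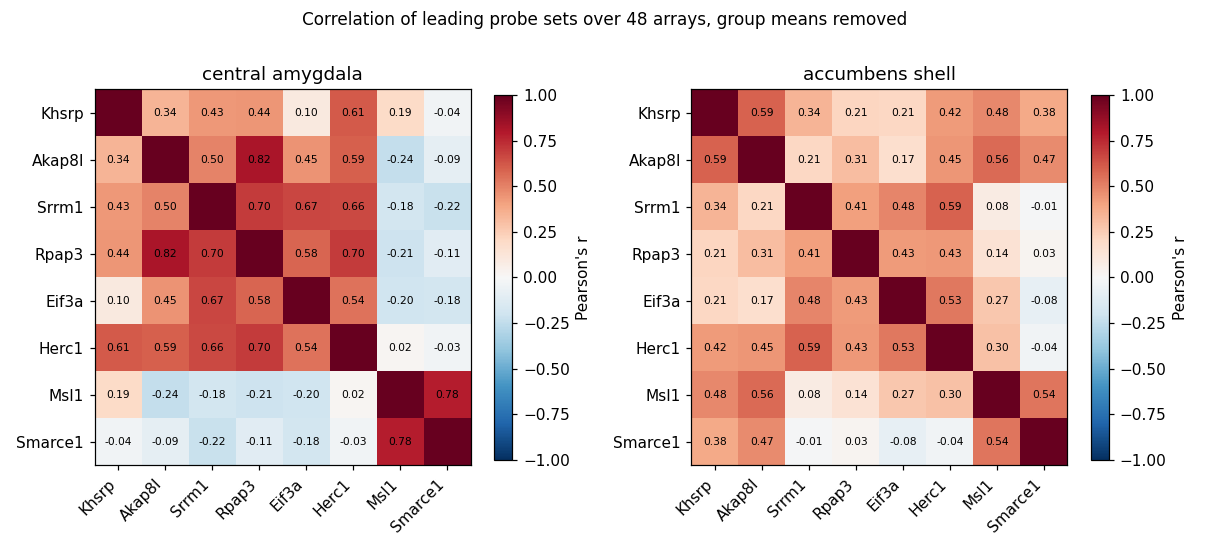
Pearson's r between leading probe sets over 48 arrays with group means removed, in the CeA (left) and the NAc shell (right), from blue (-1) through white (0) to red (1). In the CeA the 6 genes from Khsrp to Herc1 form a red block apart from a second one of Msl1 and Smarce1 at 0.78.

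Outside the 8 genes, the closest patterns by r over the 48 CeA arrays are given for 2 genes per leading probe set, among probe sets that the annotation maps to a single symbol. Srrm1 was followed by Pja2 (0.87), a ubiquitin ligase, and Kdm5a (0.84), a histone demethylase, and both stayed close in the NAc shell (0.66 and 0.72). Rpap3 was followed by Pcnx4 (0.865) and Zrsr2-ps1 (0.83), and Eif3a by Tab3 (0.81) and Zfp638 (0.775). Akap8l was nearest to Ywhab (0.77) and Pnma8b (0.76), of which Ywhab stood at -0.40 in the NAc shell.

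Herc1 was nearest to Eps8 (0.77) and Ecpas (0.76), at 0.16 and 0.00 in the NAc shell. Khsrp was nearest to Katnal1 (0.74) and Dnal1 (0.70). Msl1 was nearest to Rragc (0.74) and Rbbp5 (0.70), and Smarce1 to Cwc25 (0.71) and Rcan1 (0.63). Some of these partners were also higher in the CeA than in the NAc shell, as Pnma8b by 2.85, Kdm5a by 2.48 and Zrsr2-ps1 by 2.24, whereas Rragc (0.17) and Rbbp5 (-0.03) were close. Their CeA ethanol differences ran from -0.004 (Katnal1) to 0.58 (Ecpas), with Pnma8b at 0.49, Zrsr2-ps1 at 0.48 and Cwc25 at 0.43, in the range of the leading probe sets.

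RNA integrity was read from the difference between the 3 prime and 5 prime control probe sets of Gapdh, which grows as RNA breaks down or is copied incompletely. Over all runs its means were close between treatments, at 2.92 ± 0.55 (SD, n = 31) with ethanol and 2.91 ± 0.50 (n = 17) with water in the CeA. In the NAc shell it was 1.79 ± 0.25 with ethanol and 1.85 ± 0.27 with water. Within groups, 34.6% of all CeA probe sets followed it (limma, adjusted p under 0.05), and 5 of the 20 members tested did. For the NAc shell it was 33.4% of all, and 4 of 16 members.

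Of the 8 genes, Smarce1 had passing probe sets of both kinds in both regions. Its leading probe set fell with the Gapdh difference, with a slope of -0.74 ± 0.16 in the NAc shell (limma, adjusted p = 3.46e-04) and -0.335 ± 0.09 in the CeA (adjusted p = 0.00246), and its further probe set 1383806_at fell by -0.88 ± 0.10 and -0.28 ± 0.04. Akap8l fell in the NAc shell at its leading probe set (-0.68 ± 0.12, adjusted p = 1.60e-05) and at 1385713_at (-0.70 ± 0.17), but only 1385713_at did so in the CeA (-0.31 ± 0.05). Srrm1 rose in the CeA at its leading probe set, 0.315 ± 0.08 (adjusted p = 0.00167), and fell at 1389995_at (-0.205 ± 0.07).

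With runs as a block 21% of all probe sets followed the Gapdh difference in the CeA, and of the members the Msl1 leading probe set (-0.45 ± 0.15, adjusted p = 0.0264) and the Smarce1 probe set 1383806_at did. Runs differed in this measure, with ethanol means of 2.335, 2.51, 3.56 and 3.01 in runs 1 to 4 and water means of 2.68, 2.52, 3.265 and 3.34. Ethanol arrays were thus lower in runs 1 and 4 and higher in run 3, and the part of this in the differences within runs was not tested. With the Gapdh difference as a covariate the leading CeA estimates ran from 0.41 to 0.68, as without it.

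Markers of cell types moved a little with ethanol in the CeA. GABA neuron markers were higher in 3 of 3 probe sets, by 0.125 on average, with array means of 11.4 to 12.1 in ethanol and 11.3 to 11.9 in water rats. Neuropeptide and kinase genes that mark the central amygdala (Prkcd, Crh, Sst, Tac1, Nts, Pdyn) were higher in 6 of 6, by 0.22. Their array means ran from 9.23 to 11.01 with ethanol (median 10.28) and 8.88 to 10.8 with water (median 10.34), so the medians went the other way. By hour, ethanol and water means were 10.19 and 10.25 at 1 h, 10.17 and 9.71 at 6 h, and 10.43 and 10.13 at 24 h. Markers of medium spiny neurons were higher in 5 of 5, by 0.15. Microglia markers were higher in 1 of 7 (mean difference -0.11), endothelial markers in 0 of 5 (-0.03) and meningeal markers in 0 of 3 (-0.13). Of 6 oligodendrocyte markers 1 was higher (-0.07) and of 6 astrocyte markers 3 (-0.01). The part of these shifts in the leading differences was not tested beyond the covariates that follow.

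With the mean of the GABA neuron markers as a covariate, an alternative added after the data were seen, all 8 leading CeA estimates stayed above 0, at 0.27 to 0.58. Akap8l moved from 0.41 to 0.27 and Rpap3 from 0.44 to 0.285, Herc1 from 0.44 to 0.34, and Msl1 stayed at 0.41. With the mean of the central amygdala markers in its place the range was 0.36 to 0.725.

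Other genes of the complexes and pathways were listed by their role, with earlier results of these data known. Those named below are among the genes of each list with the smallest p in the CeA. The leading probe sets were chosen by their ethanol differences, so the size of the differences in the lists cannot be set against theirs. In 8 lists written from textbook knowledge, with the members left out and the brightest probe set taken for each gene, no gene passed in the CeA, with or without the run block, or in the NAc shell (limma, adjusted p under 0.05). At an unadjusted p under 0.05 the lists held 0 or 1 gene each in the CeA, where 8.16% of all probe sets had one. Medians of the lists lay between -0.02 and 0.04 in the CeA, and the median of all probe sets was -0.001.

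By role, the RNA-binding proteins of AU-rich elements and KH domains, the class of Khsrp, had 17 of 23 genes higher and a median of 0.01. Parn, a poly(A) nuclease that acts with such proteins, was at 0.20 ± 0.06 (adjusted p = 0.316), and Tial1 at 0.08 ± 0.05. Splicing factors, the class of Srrm1, had 15 of 24 higher with a median of 0.01, with Srsf4 at 0.07 ± 0.03 and Srrm2 at 0.11 ± 0.06. Of A-kinase anchoring and protein kinase A genes 12 of 16 were higher, with Akap9 at 0.19 ± 0.10.

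RNA polymerase II subunits and their R2TP chaperones, the class of Rpap3, had 10 of 27 higher, with Polr2c at 0.17 ± 0.07 and Polr2d at -0.14 ± 0.08. Of the other subunits of eIF3 only 2 of 10 were higher in the CeA, among them Eif3h (0.08 ± 0.04), with Eif3l at -0.09 ± 0.07. In the NAc shell 9 of 10 were higher, with a median of 0.08, where 53.4% of all probe sets tested were higher. No eIF3 gene passed, and the regions were not tested against each other. HECT ubiquitin ligases, the class of Herc1, had 11 of 17 higher, with Nedd4 at 0.09 ± 0.04 and Hace1 at -0.13 ± 0.08.

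Of the genes of the MSL and NSL complexes 6 of 9 were higher, with Kansl3 at 0.12 ± 0.06 and Msl3 at -0.10 ± 0.06. The BAF complex, that of Smarce1, was evenly split with 11 of 22 higher, where Bcl7a was at -0.12 ± 0.05 and the ATPase Smarca4 at 0.12 ± 0.06. For comparison, 49.3% of all CeA probe sets tested were higher with ethanol.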

How the data were processed

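The values were made by the authors with RMA, per the submitters' processing notes, and were deposited as log2 values, 1 column per array; RMA corrects background, normalizes by quantiles and summarizes probes by median polish. Its version and any filter are not given in the sources used here. Per the labels' protocols, Trizol and then an RNeasy kit were used for the RNA. Each of the 96 columns matched the title of an array, and 0 were identical to another. The table held 31099 probe sets, of which 57 controls were left out of tests. Probe sets were named from the platform annotation (20826 with 1 symbol, 436 with several, 9780 not listed), and 20758 symbols were updated by Entrez ID.

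The 2 regions were fitted separately in R 4.3.3, using limma 3.58.1 with a mean per group of treatment and time and moderated variances with an intensity trend. P-values were adjusted by Benjamini-Hochberg across 18625 probe sets, those with a mean above the 40th percentile (6.96 in the CeA, 7.09 in the NAc shell). Estimates of dimmer members come from the fit without the filter. Adjusted p under 0.05 counts as passing. The number of arrays limits the precision. The code was tested on simulated data.

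The members and all gene and marker lists were chosen with earlier results of these data known. All 22 member probe sets are described. For each list, up to 3 genes with the smallest CeA p are eligible to be named, and for likeness the 2 genes with the highest r. Other settings are given in the closing section.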

Additional observations from a re-analysis of the deposited data

Results flagged for a closer look

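Arrays were compared within their groups for the 8 leading probe sets, and 6 of 80 groups of 4 to 10 arrays held an array far from the others by Dixon's test; chance flags about 1 in 20 groups. In the CeA, Akap8l was at 6.997 in the lowest ethanol array at 6 h, the next being at 7.54. Eif3a was at 4.913 in the lowest water array at 24 h, the next being at 6.64. Herc1 was at 11.765 in the highest ethanol array at 6 h, the next being at 11.1. Smarce1 was at 6.481 in the lowest water array at 6 h, the next being at 7.47. In the NAc shell, Herc1 was at 7.976 in the highest water array at 1 h, the next being at 7.30, and Msl1 was at 11.888 in the highest ethanol array at 6 h, the next being at 11.3. The Akap8l and Smarce1 arrays were among the 4 CeA arrays of low correlation. Without the array in question the estimates over the mean of the 3 times were 0.44 for Akap8l, 0.57 for Eif3a, 0.41 for Herc1 and 0.34 for Smarce1 in the CeA, and 0.11 for Herc1 and 0.20 for Msl1 in the NAc shell.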

How the results depend on the processing

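The leading CeA estimates kept their sign and moved by less than 1 residual SD under all 11 settings tried and as each of 48 arrays was left out. That limit is wide, and the same arrays chose the genes, so a kept sign was likely. The lowest estimate was 0.27, against 0.41 in the main fit, for Msl1 with array quality weights and for Akap8l with the GABA marker covariate. The settings were filtering (none, or above percentile 60), a second quantile step, weights by array quality, the Gapdh covariate, blocks for title numbers or runs, low-correlation arrays left out alone and with the run block, and 2 marker covariates added later. Counts of probe sets past the threshold moved more. For CeA ethanol over the 3 times the count of 0 became 74 with array quality weights, 48 with runs as a block, 40 with runs as a block and without low-correlation arrays, 2 with the Gapdh covariate and 2 with the replicate block, and 0 to 14 with an array left out. At 1 h it became 1 with quality weights and 4 with runs as a block and without low-correlation arrays, and 0 to 2 with an array left out. In the NAc shell the counts with an array left out were 0 to 1 over the 3 times and at 24 h, and 3 to 10 for time within ethanol, where the count of 7 became 4 with the higher filter and 2 without low-correlation arrays; at 6 h it was 1 with the Gapdh covariate. Same-numbered ethanol and water arrays of the CeA did not deviate together as a rule (8 of 17 pairs correlated above 0.1, median 0.04, range -0.78 to 0.75). No pairing by number was seen, but this check cannot exclude one. The replicate block moved no other count by over 1.5 times. The counts of 14 and 10 came without the water array 14 at 24 h and the NAc shell ethanol array 45 at 6 h, and that of 3 without ethanol array 44 at 6 h. The Gapdh slope was called in 6447 CeA probe sets, 6046 to 6772 with an array left out, which became 4204 with the higher filter, 1830 with beta-actin in its place, 3916 with runs as a block and 1485 with that block without low-correlation arrays; the NAc shell count of 6214 was 5332 to 6409 with an array left out and became 1612 with beta-actin. The cause of these changes was not tested, except that the higher filter tests fewer probe sets.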
